A study of Mus musculus with 12 samples.

Results

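The 10 genes described here encode regulators of blood vessel growth, stability and clotting: Vegfa, Vegfb, Vegfc, Pgf, Angpt1, Angpt2, Angptl2, Angptl4, Serpinf1 and Thbd. They were chosen by name and found in all 12 libraries by matching gene identifiers to symbols, and all 10 were among the 18628 of 54146 genes with enough counts to be tested. Retinas, RPE included, came from 12 mice on a 129/SV background, with 1 library per mouse and 3 mice per condition. P30 controls (mice 1 to 3) were killed at day 0. Otx2 flox/flox;Crx-CreERT2 cKO mice received a single injection of tamoxifen at P30 and were killed 2 (P32, mice 4 to 6), 4 (P34, mice 7 to 9) or 8 days later (P38, mice 10 to 12). The Crx promoter places the tamoxifen-dependent Cre in photoreceptors, so the deletion is not aimed at vascular cells, glia or RPE. The controls are labelled only as control, with no days after injection, although the same tamoxifen protocol is attached to every sample. Age, tamoxifen and Otx2 deletion therefore changed together between P30 and each cKO group and cannot be told apart.

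Blood vessels respond to a balance of secreted signals. VEGF family ligands bind receptor tyrosine kinases on endothelial cells, with VEGF-A as the main driver of vessel sprouting and permeability and a factor released by RPE and Müller glia. Angiopoietin-1 and angiopoietin-2 share the receptor TIE2 (Tek), where the former stabilizes vessels and the latter mostly opposes it. PEDF (Serpinf1) restrains vessel growth and is secreted by RPE. Thrombomodulin (Thbd) is a membrane receptor of endothelial cells that turns thrombin from a clotting enzyme into an activator of protein C, so the name "ligands" fits the other 9 genes but not Thbd.

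Promoters were examined because OTX2 and the related factor CRX bind the core TAATCC. RefSeq promoters, on build GRCm38.p6 and 300 bases long around a transcription start, most of them upstream of it, were matched for 6 of the 10 genes (8 promoters of Vegfa, Vegfb, Vegfc, Angptl2, Pgf and Serpinf1). Thbd, Angpt1, Angpt2 and Angptl4 had no entry. On both strands, TAATCC was found in 1 of the 8 promoters, against 7.06% of all 32851 promoters of the same length. The hypoxia response core (ACGTG or GCGTG) was found in 4 of the 8, against 43.8% of all promoters. The E-box CACGTG, which overlaps that core, was found in 0 of the 8, against 7.15%, and the SP family box GGGCGG in 6 of the 8, against 35.7%. A match of letters is a description and not a binding site. 2 promoters are shown, that of Angptl2 because this gene had the largest difference between conditions among the 10, and the Pgf promoter that holds the OTX core. The latter window lies inside the Pgf gene, 1808 bases from the start of the gene in the GENCODE annotation, and the other Pgf promoter, 477 bases from it, held no OTX core. Both are printed 5′ to 3′ on the strand of the gene, at chr2:33215711-33216010 (plus strand) for Angptl2 and chr12:85175933-85176232 (minus strand) for Pgf, and the capitals mark the OTX core, here read as its reverse complement:
Angptl2: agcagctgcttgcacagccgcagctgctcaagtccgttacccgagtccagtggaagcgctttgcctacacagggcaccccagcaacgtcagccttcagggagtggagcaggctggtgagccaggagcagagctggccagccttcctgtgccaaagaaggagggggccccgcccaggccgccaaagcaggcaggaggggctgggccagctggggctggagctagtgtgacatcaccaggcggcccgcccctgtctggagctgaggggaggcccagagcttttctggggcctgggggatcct
Pgf: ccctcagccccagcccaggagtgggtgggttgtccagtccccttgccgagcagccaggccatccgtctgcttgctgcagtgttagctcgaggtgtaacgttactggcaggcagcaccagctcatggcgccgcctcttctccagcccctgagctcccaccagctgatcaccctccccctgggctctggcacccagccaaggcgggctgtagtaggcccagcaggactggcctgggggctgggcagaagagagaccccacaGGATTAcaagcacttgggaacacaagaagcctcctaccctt

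Libraries held 29701483 to 60145034 counts on genes, so that 3 counts correspond to 0.0473 to 0.102 CPM (counts of a gene relative to the library total, scaled by TMM), a floor that covers counting error only. All 10 genes lay above it in every mouse. Counts of same-group mice differed by more than sampling noise, with a chi-square per degree of freedom of 19.7 to 254. Otx2 measured 293 to 328 CPM at P30 and 307 to 377 CPM in the cKO mice, but whole-gene counts do not check the deletion, since the paper's allele loses an exon without a change in transcript level. Counts per exon were not analysed here, so the deletion was not checked in single mice. Lens genes stood apart, with the sum of 8 lens markers between 280 and 45771 CPM across mice and highest in P30 mouse 3 and P32 mice 4 and 5. From Xist and Y-linked genes, 7 mice were female and 5 male, and the 3 P30 mice were all female.

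Compared per length of transcript (TPM, counts relative to transcript length and scaled to a fixed total, mean ± SD over 12 mice), Vegfa was the most abundant of the 10 at 135 ± 29.7 TPM. Vegfb followed at 62.1 ± 10.9 TPM and Serpinf1 at 6.83 ± 0.995 TPM. Each of these 3 exceeded the next gene in 12 of 12 mice and by more than the sum of both SDs. The other 7 genes ran from 4.43 ± 0.766 TPM for Angpt2 through Vegfc (4.11 ± 0.825), Angptl2 (3.42 ± 3.44), Thbd (2.88 ± 2.19), Pgf (2.43 ± 1.21) and Angpt1 (1.96 ± 0.392) to 1.25 ± 0.468 TPM for Angptl4. Neighbours among these 7 did not differ by more than the sum of their SDs, and the SD of Angptl2 was as large as its mean with P30 mice 2 and 3 far above the other mice. Vegfa and Vegfb thus stood far above the other 8 genes. The lower order depended on the group: in the P30 mice alone, Angptl2 averaged 8.33 ± 3.78 TPM and Thbd 5.91 ± 2.75 TPM beside 7.90 ± 0.201 TPM for Serpinf1 (SD, n = 3), and Angptl2 exceeded Serpinf1 in P30 mice 2 and 3.

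Vegfa (chr17:46016993-46032369, minus strand, GRCm38) encodes the main VEGF ligand. It measured 167, 174 and 143 CPM in the P30 mice. P32 mice measured 131, 159 and 162 CPM, P34 mice 106, 138 and 144 CPM and P38 mice 99.0, 147 and 149 CPM. Every cKO group overlapped the P30 mice at its upper end, and mice 4, 7 and 10 were the lowest of the 12. Against P30 the log2 fold change was -0.10 for P32 mice (95% interval -0.47 to 0.26), -0.32 for P34 mice (-0.69 to 0.04) and -0.30 for P38 mice (-0.66 to 0.07). With edgeR's quasi-likelihood test and Benjamini-Hochberg adjustment over all genes tested, adjusted p was 0.838, 0.540 and 0.847, so Vegfa was not called at any age, where a call needs an adjusted p no higher than 0.05 and a log2 change no smaller than 0.5 in either direction. These intervals still allow a decrease of up to 0.69 on the log2 scale.

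Vegfb (chr19:6982473-6987651, minus strand), a ligand of VEGFR1 linked to the survival and metabolism of vessels more than to sprouting, measured 21.7, 20.8 and 26.7 CPM at P30. P32 mice measured 42.3, 23.5 and 20.7 CPM, P34 mice 26.3, 17.2 and 27.1 CPM and P38 mice 29.8, 24.9 and 22.3 CPM. P32 mouse 4 alone stood above all others, and the remaining 11 mice spread between 17.2 and 29.8 CPM with the groups overlapping. Log2 fold changes against P30 were 0.32, 0.03 and 0.16 at P32, P34 and P38, with adjusted p of 0.704, 0.984 and 0.940 (edgeR). Without mouse 4 the value at P32 was -0.06, so its sign rested on that mouse.

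Vegfc (chr8:54077606-54187096, plus strand), the lymphatic VEGF ligand, measured 3.01, 2.81 and 2.32 CPM at P30 and 3.42, 2.66 and 2.59 CPM at P32. P34 mice measured 2.87, 2.16 and 2.27 CPM, and P38 mice 1.70, 2.53 and 1.83 CPM. The 3 P38 mice were all below the 3 P32 mice, while P30 and P34 overlapped both. The P38 against P32 difference was -0.51 on the log2 scale (SE 0.22) with an unadjusted p of 0.0404 and an adjusted p of 0.198 in the edgeR fit across all genes, and was not called. Against P30 the differences were 0.09, -0.16 and -0.42 at P32, P34 and P38, none of them called.

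Pgf (chr12:85166635-85177790, minus strand) encodes placental growth factor, a VEGFR1 ligand that is scarce in resting vessels. P30 mice measured 2.22, 1.57 and 3.21 CPM, and P32 mice 4.08, 2.27 and 1.01 CPM. P34 mice measured 0.994, 0.857 and 0.711 CPM, all below every P30 and every P32 mouse. P38 mice measured 1.87, 2.13 and 0.849 CPM and overlapped the other groups. The P34 difference was -1.44 ± 0.49 (log2, SE; 95% interval -2.50 to -0.38) against P30, with an adjusted p of 0.318 (edgeR), and -1.51 ± 0.49 against P32, with an adjusted p of 0.105. Neither was called by edgeR as fitted. The first passed with sex as a covariate (log2 -2.13, adjusted p = 0.0486), and the second passed in DESeq2 (adjusted p = 0.0265). The P32 difference of 0.07 against P30 turned to -0.50 without mouse 4.

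Angpt1 (chr15:42424723-42676977, minus strand), the TIE2 agonist, measured 2.05, 2.91 and 3.21 CPM at P30. The 9 cKO mice spread from 1.74 to 2.90 CPM with a median of 2.40 CPM, inside or just under the P30 range. Log2 fold changes against P30 lay between -0.14 and -0.12 at the 3 ages, and the pooled cKO difference was -0.13 (95% interval -0.54 to 0.28). No difference was detectable at these low counts. The intervals at single ages were wider, from -0.66 to 0.42 at P32, -0.66 to 0.43 at P34 and -0.68 to 0.40 at P38.

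Angpt2 (chr8:18690263-18741562, minus strand) encodes the TIE2 ligand that endothelial cells release when vessels remodel. P30 mice measured 3.61, 4.38 and 4.69 CPM, P32 mice 3.42, 3.80 and 3.25 CPM, P34 mice 5.36, 3.60 and 4.71 CPM and P38 mice 3.71, 3.80 and 4.65 CPM. All 3 cKO groups overlapped P30 in CPM, although the P32 mice were all below P30 in TPM, and P32 was the lowest and P34 the highest on average. The P34 against P32 difference was 0.38 on the log2 scale (95% interval -0.04 to 0.80, adjusted p = 0.222 with edgeR). Angpt2 lies on the opposite strand to Mcph1, which held 157 to 375 counts per mouse, and since the strand option of the counting is not stated, reads shared between them cannot be separated.

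Angptl2 (chr2:33216069-33247717, plus strand) encodes a secreted angiopoietin-like protein tied to inflammation and matrix remodelling, which does not bind TIE2. It measured 5.98, 15.4 and 18.0 CPM in P30 mice 1, 2 and 3. P32 mice measured 3.96, 4.26 and 1.87 CPM, P34 mice 1.35, 1.08 and 1.35 CPM and P38 mice 4.29, 4.27 and 3.29 CPM. Every cKO mouse lay below every P30 mouse, all P34 mice lay below all other mice, and P30 mouse 1 lay much closer to the cKO mice than its group mates. Angptl2 fell at P34 by 3.38 on the log2 scale (SE 0.42, 95% interval -4.29 to -2.47), 10.4-fold from a mean of 13.1 ± 6.34 to 1.26 ± 0.159 CPM (SD, n = 3), with an adjusted p of 0.00270 (edgeR). The call held without any 1 of the 12 mice (log2 -3.73 to -3.09, adjusted p 0.000459 to 0.0316). The 7 female mice alone leave 1 mouse at P34, assumed to vary like the other groups. They gave a value of -3.25 with an adjusted p of 0.533 (edgeR), and with 1 mouse this p does not bear on the call.

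At P32 and P38 the Angptl2 differences were -1.96 ± 0.39 and -1.73 ± 0.38 (log2, SE) with adjusted p of 0.592 and 0.528 in edgeR, and were not called. Unadjusted p was 0.000284 and 0.000737, and adjusted p in DESeq2 was 0.000673 and 0.00709. Without P30 mouse 1 both passed in edgeR, at -2.31 (adjusted p = 0.0248) and -2.08 (adjusted p = 0.0382). The level was again higher at P38 than at P34 by 1.65 on the log2 scale (adjusted p = 0.283 with edgeR and 0.00742 with DESeq2). Over the 4 conditions Angptl2 differed between at least 1 pair (edgeR test with 3 degrees of freedom, adjusted p = 0.0137). That call was lost without P30 mouse 2 or 3 or without any 1 of the P34 mice. Angptl2 lies opposite Ralgps1, which held 1663 to 4240 counts per mouse.

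Angptl4 (chr17:33773750-33781830, minus strand) encodes a fasting- and hypoxia-induced inhibitor of lipoprotein lipase. P30 mice measured 1.37, 1.01 and 2.32 CPM, and the 9 cKO mice 0.643 to 1.95 CPM with a median of 0.857 CPM. All groups overlapped in CPM, although the P34 and P38 mice were all below P30 in TPM, with P30 mouse 3 and P32 mouse 4 the highest of the 12. The pooled cKO difference was -0.66 on the log2 scale (95% interval -1.35 to 0.03, unadjusted p = 0.0607 with edgeR, not called), and the intervals at P34 (-1.75 to 0.03) and P38 (-1.67 to 0.10) were wider. At P32 the difference was -0.37, and -0.88 without mouse 4.

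Serpinf1 (chr11:75409769-75422701, minus strand), the gene of the vessel growth inhibitor PEDF, measured 4.57, 4.12 and 5.23 CPM at P30. The 9 cKO mice measured 2.69 to 5.01 CPM with a median of 3.93 CPM, and each cKO group overlapped P30 on this scale. In TPM they did not overlap, with 7.75 to 8.13 TPM in the P30 mice and 4.94 to 7.56 TPM in the 9 cKO mice. Log2 fold changes were -0.22, -0.36 and -0.20 at P32, P34 and P38, with adjusted p of 0.751, 0.618 and 0.905 (edgeR).

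Thbd (chr2:148404466-148408188, minus strand) measured 2.49, 5.77 and 8.47 CPM in P30 mice 1, 2 and 3. P32 mice measured 1.80, 2.17 and 1.45 CPM, P34 mice 2.18, 1.59 and 1.25 CPM and P38 mice 1.67, 2.06 and 1.63 CPM. The 9 cKO mice were tightly grouped between 1.25 and 2.18 CPM and all lay below the 3 P30 mice, of which mouse 1 was again the lowest. In the 9 cKO mice as one group Thbd fell by 1.66 on the log2 scale (SE 0.27, 95% interval -2.23 to -1.09), 3.16-fold from 5.58 ± 2.99 CPM (SD, n = 3) to 1.76 ± 0.325 CPM (SD, n = 9), with an adjusted p of 0.0485 (edgeR). This call sat at the threshold. It was kept without P30 mouse 1 (log2 -2.01, adjusted p = 0.000982) and lost without any other single mouse, down to -1.23 and an adjusted p of 0.575 without P30 mouse 3. It was also lost with sex as a covariate (log2 -1.77, adjusted p = 0.342), among the female mice, 3 at P30 and 4 cKO (log2 -1.75, adjusted p = 0.641), without P30 mouse 3 and P32 mice 4 and 5 (log2 -1.28, adjusted p = 0.211) and with a filter of 1 CPM in 3 libraries (log2 -1.66, adjusted p = 0.0664).

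By age, Thbd differed from P30 by -1.62, -1.72 and -1.63 on the log2 scale at P32, P34 and P38, with adjusted p of 0.698, 0.0835 and 0.608 in edgeR and of 0.0291, 0.00125 and 0.0238 in DESeq2. Between cKO ages its differences were -0.11 (P34 against P32), 0.09 (P38 against P34) and -0.01 (P38 against P32). Angptl2, Thbd and Pgf are among genes that the study itself picked from these libraries as lowered, so their direction here is not independent evidence. The same holds for Col18a1, Timp3 and the called cell type markers named below. In whole retina, fewer cells of a type and less RNA per cell cannot be told apart.

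**Figure D1:**
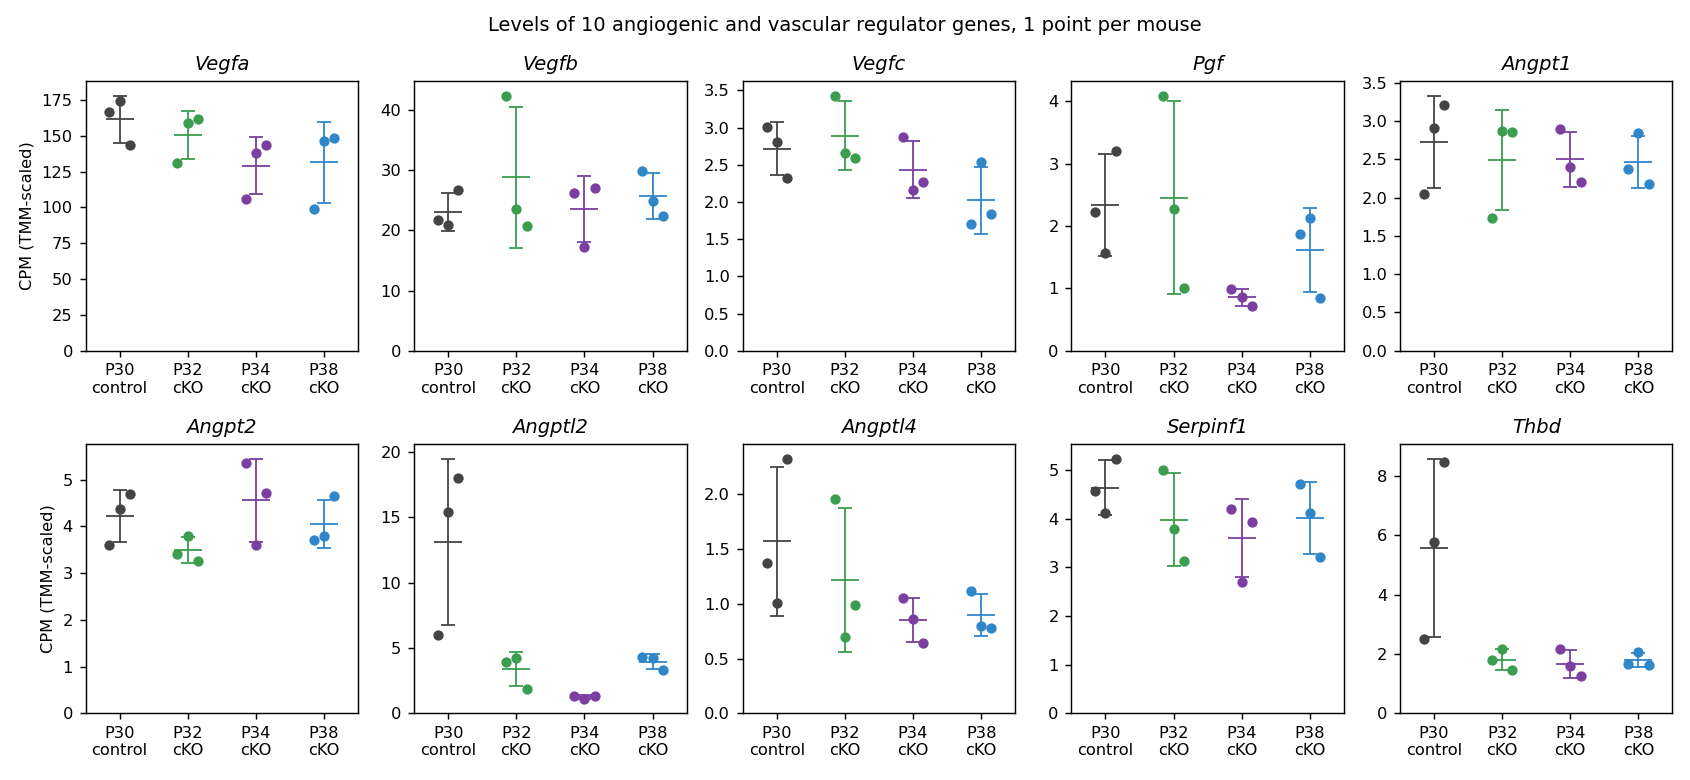
Level of each of the 10 genes in every mouse, in CPM on a linear axis from 0, for the P30 control and the P32, P34 and P38 cKO groups (points, mice in order of their numbers; horizontal mark and bar, mean ± SD, n = 3). In the Angptl2 and Thbd panels every cKO point lies below every P30 point, and P34 lies at 1.08 to 1.35 CPM for Angptl2, while the Vegfa, Vegfb, Angpt1, Angpt2 and Serpinf1 groups overlap on this scale.

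Counted over the set, edgeR called at most 1 of the 10 genes in any comparison and DESeq2 at most 2. Against P30, edgeR called 0 of 10 at P32, where it called 0% of the 18628 genes tested. At an unadjusted p of at most 0.05 with the same fold limit, 2 of 10 passed at P32 against 2.9% of genes, and DESeq2 called 2 of 10 against 0.134%. At P34 edgeR called 1 of 10 (Angptl2) against 0.66% of genes, all of the latter lower in cKO, with 3 of 10 against 6.27% unadjusted and 2 of 10 against 1.98% in DESeq2. At P38 it called 0 of 10 and 0% of genes, with 2 of 10 against 3.46% unadjusted and 2 of 10 against 0.242% in DESeq2. Apart from the single edgeR call at P34, the genes past a threshold at each age were Angptl2 and Thbd, joined at P34 by Pgf without adjustment. With the 9 cKO mice pooled, 1 of 10 (Thbd) was called against 0.0537% of genes, 2 of 10 against 1.88% unadjusted and 2 of 10 against 0.248% in DESeq2.

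Between cKO ages edgeR called none of the 10. For P34 against P32 it called 0.242% of genes, and 2 of 10 (Angptl2 and Pgf) passed unadjusted against 14.4%, as they did in DESeq2 against 8.65%. For P38 against P34 it called 0.199% of genes, and 1 of 10 (Angptl2) passed unadjusted against 3.81% and in DESeq2 against 0.774%. For P38 against P32 it called 0% of genes, with 1 of 10 (Vegfc) against 11.9% unadjusted and 0 of 10 against 6.05% in DESeq2. The test over all 4 conditions called 1 of 10 (Angptl2) against 0.344% of genes, 3 of 10 against 17.2% unadjusted and 2 of 10 against 7.65% in DESeq2.

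Read by overlap of CPM alone, 2 of the 10 genes (Angptl2 and Thbd) had all 3 cKO values below all 3 P30 values at P32, against 4.39% of all genes tested. At P34 it was 3 of 10 (with Pgf) against 9.67%, and at P38 2 of 10 against 7.96%. All 9 cKO values lay below all 3 P30 values for 2 of 10, Angptl2 and Thbd, against 0.478% of genes. In TPM the counts were 4, 5 and 4 of 10 at P32, P34 and P38, against 3.14%, 6.4% and 4.69% of all genes tested, and 3 of 10 (with Serpinf1) over all 9 cKO mice, against 0.531%. Over the 10 genes the log2 fold changes had medians of -0.17, -0.34 and -0.36 at P32, P34 and P38, and 7, 8 and 9 of 10 were below 0. The medians over all genes tested were -0.01, 0.00 and -0.01. These comparisons share the P30 mice, so the 3 ages are not separate evidence.

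**Figure D2:**
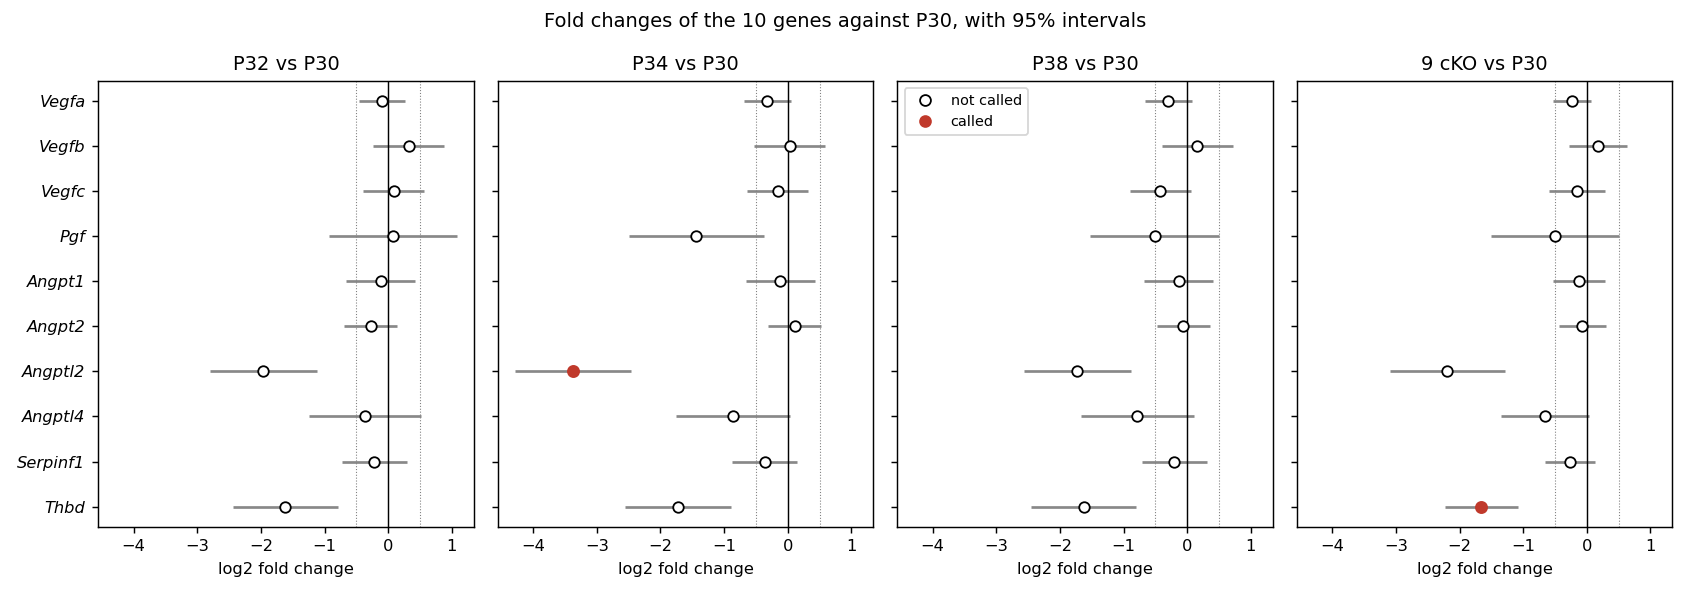
Log2 fold change of each gene against P30 at P32, P34 and P38 and for the 9 cKO mice pooled (points, edgeR estimates; bars, 95% intervals; dotted lines, the fold limit of 0.5; filled points, called). Angptl2 at P34 (-3.38) and Thbd in the pooled comparison (-1.66) are the only filled points, and the intervals of Angptl2 and Thbd exclude 0 in all 4 panels although most were not called after adjustment over all genes.

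The genes of the related pathways were read from 7 lists. In any comparison edgeR called at most 0.66% of all genes tested, so 0 calls in a list of this length is near that share. None of the 10 receptors of these ligands was called in any comparison. The most abundant, Kdr (VEGFR2, the main VEGF-A receptor), measured 223 ± 20.8 CPM at P30, 181 ± 32.1 at P32, 254 ± 31.1 at P34 and 232 ± 24.5 at P38 (SD, n = 3), and Itgb1, an integrin subunit, 79.6 ± 12.5, 64.7 ± 8.20, 63.0 ± 4.73 and 81.5 ± 17.1 CPM. None of the 10 other VEGF, angiopoietin-like and vascular growth ligands was called, with Fgf2 (a fibroblast growth factor, 16.5 CPM over the 12 mice) and Angptl6 (8.50 CPM) the most abundant.

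Vegfa and Angptl4 are hypoxia-inducible, and 0 of 10 oxygen sensing regulators and 0 of 12 hypoxia-induced targets were called in any comparison. Unadjusted, 4 of the 12 targets passed for P34 against P32, all lower, against 14.4% of all genes. For P38 against P34, 2 of 12 passed, all higher, against 3.81%. At most 1 of 12 passed in each other comparison, and 0 of 10 regulators in any. Hif1a, the oxygen-regulated transcription factor, measured 770 ± 7.44 CPM at P30 and 673 ± 91.7, 804 ± 7.76 and 814 ± 79.6 CPM at P32, P34 and P38. Epas1 (HIF2α) averaged 131 CPM over the 12 mice. Ldha and Hk2, glycolytic targets that photoreceptors express strongly in any case, averaged 927 and 505 CPM. Median log2 fold changes of the hypoxia-induced targets were 0.07, -0.14 and 0.09 at P32, P34 and P38. None of the 8 tested partners of ANGPTL4 and PEDF was called, the most abundant being Lrp6, a WNT co-receptor to which PEDF binds (83.6 CPM), and Ppard, a lipid-sensing nuclear receptor that induces Angptl4 (36.9 CPM).

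Among 10 secreted angiogenesis inhibitors 1 was called, Col18a1, whose collagen XVIII yields endostatin. P30 mice measured 89.5, 92.9 and 104 CPM, P32 mice 64.7, 105 and 45.9 CPM, P34 mice 20.2, 21.5 and 19.9 CPM and P38 mice 61.7, 92.8 and 58.4 CPM. As for Angptl2, its P34 mice lay below all other mice. Col18a1 fell at P34 by 2.22 on the log2 scale (SE 0.26, adjusted p = 0.00201 with edgeR), was lower at P34 than at P32 (-1.81, adjusted p = 0.0115) and higher at P38 than at P34 (1.79, adjusted p = 0.0150). Sparc and Timp3, matrix proteins that were the most abundant of this list at 485 and 110 CPM over the 12 mice, were not called. Both had all P34 mice below all P30 mice, as did 9.67% of all genes tested. Sparc measured 287 to 370 CPM at P34 and 402 to 603 CPM at P30, and Timp3 77.9 to 85.5 CPM and 112 to 188 CPM. At P34, 4 of the 10 inhibitors had a log2 fold change below 0 against P30, and the median was 0.09. All 4 passed at an unadjusted p of at most 0.05 with the fold limit, against 6.27% of all genes (edgeR).

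Of the thrombomodulin partners and coagulation genes, F2r, the main thrombin receptor, and Plat, tissue plasminogen activator, were the most abundant, at 20.3 and 17.0 CPM over the 12 mice. F2r measured 22.1 ± 5.37 CPM at P30, 23.0 ± 9.03 at P32, 10.2 ± 0.702 at P34 and 25.9 ± 11.6 at P38 (SD, n = 3). Plat ranged from 17.6 to 23.0 CPM in the P30 mice and from 12.3 to 20.6 CPM in the 9 cKO mice. Neither was called in any comparison. Over the 9 tested genes of this list the median log2 fold changes against P30 were -0.44, -1.05 and -0.44 at P32, P34 and P38. Of these 9, 6, 9 and 8 were below 0. At P34, 1 of the 9, a gene not reported here, was called as lower by edgeR, against 0.66% of all genes. Unadjusted, 3 of 9 passed at P34, all lower, against 6.27% of all genes.

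**Figure D3:**
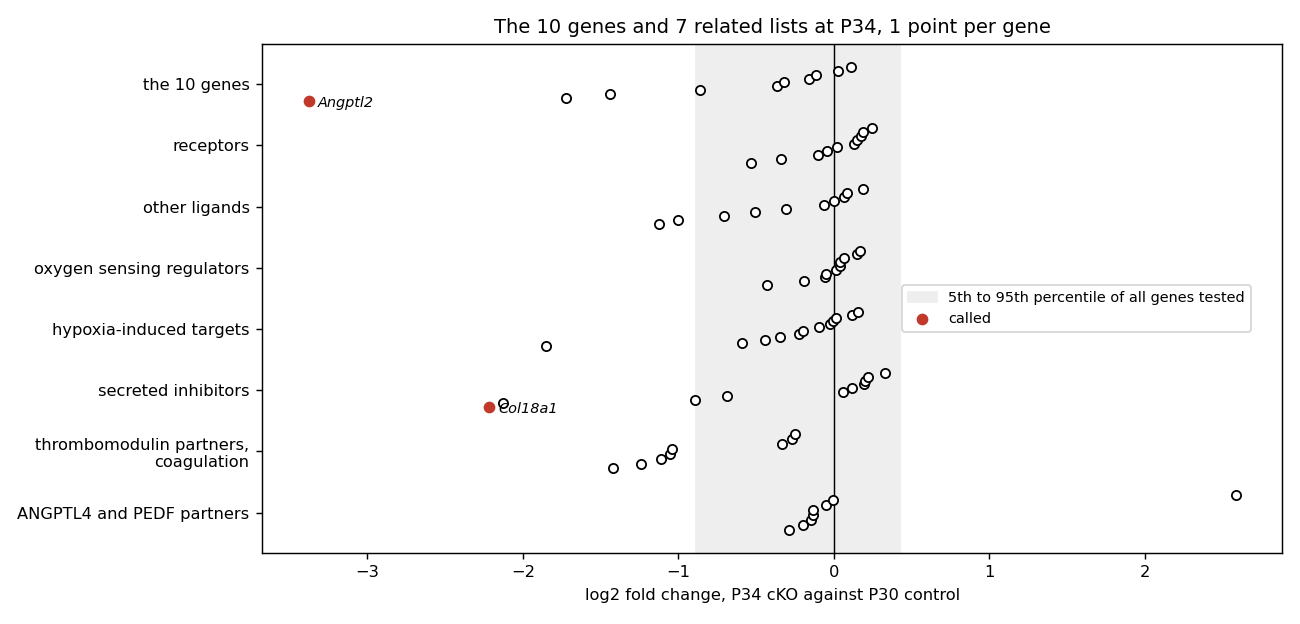
Log2 fold change at P34 against P30 of the 10 genes and of genes from 7 related lists, 1 point per gene (filled, called by edgeR; grey band, the 5th to 95th percentile of all genes tested, -0.89 to 0.43). Angptl2 and Col18a1 are the filled points, at -3.38 and -2.22, while receptors and oxygen sensing regulators stay inside the band. The called coagulation gene that is not reported here is not drawn.

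Angptl2 and Thbd were set beside markers of the cell types that a dissected retina can hold. The sum of 10 endothelial markers was 64.4 to 69.9 CPM at P30, 62.8 to 77.4 at P32, 54.3 to 78.5 at P34 and 51.2 to 60.0 at P38, with 0 of 10 called at any age. Its P32 and P34 mice overlapped P30 and its P38 mice lay below. The sum of 8 pericyte markers was 69.9 to 90.0 CPM at P30 and 56.4 to 96.4 CPM in the cKO mice, with 0 of 8 called. All markers of both lists were detected in every mouse.

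On average, smooth muscle and pigment cell markers were lower in the cKO groups, as Angptl2 and Thbd were, although single P32 and P38 mice exceeded P30 mouse 1. The sum of 7 smooth muscle markers was 29.5 CPM in P30 mouse 1 against 182 and 198 CPM in its group mates. It was 48.7, 43.3 and 11.04 CPM in P32 mice 4, 5 and 6, 9.33 to 13.9 CPM at P34 and 16.7 to 22.8 CPM at P38. At P34, 4 of the 5 tested smooth muscle genes were called (Acta2, Myh11, Tagln and Myl9), against 0.66% of all genes. In the pooled cKO mice, where Thbd was called, 3 of the 5 were called (Myh11, Tagln and Myl9), against 0.0537% of all genes. Cnn1 and Actg2 were at 0 in 2 and 6 of the 12 mice. The sum of 10 RPE and pigment cell markers was 195 CPM in P30 mouse 1 against 860 and 805 CPM in its group mates, and the cKO mice held 82.7 to 256 CPM. At P34, 2 of 10 were called (Tyrp1 and Mlana, genes of pigment synthesis), against 0.66% of all genes. In the pooled cKO mice 7 of the 10 were lower and 3 were not (Rpe65, Lrat and Ttr, named after their values were seen). Rpe65, the visual cycle enzyme that defines RPE, averaged 13.4 CPM at P30, and its log2 fold change was 0.33 at P34 (adjusted p = 0.849 with edgeR) and 0.26 in the pooled cKO mice. P30 mouse 1, the control with the lowest Angptl2 and Thbd, was thus also the lowest control in both sums.

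With Angptl2 at P34, where Col18a1 fell too, the sum of 7 ciliary body and iris markers was 138 to 157 CPM against 198 to 221 CPM at P30 and 165 to 280 CPM at P38. At P34, 2 of 7 were called (Otx1 and Zic1), against 0.66% of all genes. The sum of 7 fibroblast markers was 28.4 to 53.1 CPM at P34 against 67.1 to 99.5 CPM at P30, with 1 of 7 called at P34 (Col1a2), against the same 0.66%. The lens sum was 280 to 765 CPM at P34 and 532 to 39457 CPM at P30, with 0 of 8 called at P34. P30 mouse 2, at 532 CPM, lay inside the P34 range. At an unadjusted p of at most 0.05 with the fold limit, 8 of 8 were lower at P34, against 6.27% of all genes passing in either direction. The part of these cell types in the values of Angptl2, Thbd and Pgf was not tested. Photoreceptor markers summed to 62193 to 68195 CPM at P30 and 56609 to 103561 CPM in the cKO mice (0 of 8 called), and Müller glia and astrocyte markers to 4041 to 4212 and 3764 to 4447 CPM (0 of 8). Microglia (0 of 6) and red blood cell markers (0 of 5) held no called gene, with sums over all mice of 26.1 to 40.9 and 21.6 to 167 CPM.

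**Figure D4:**
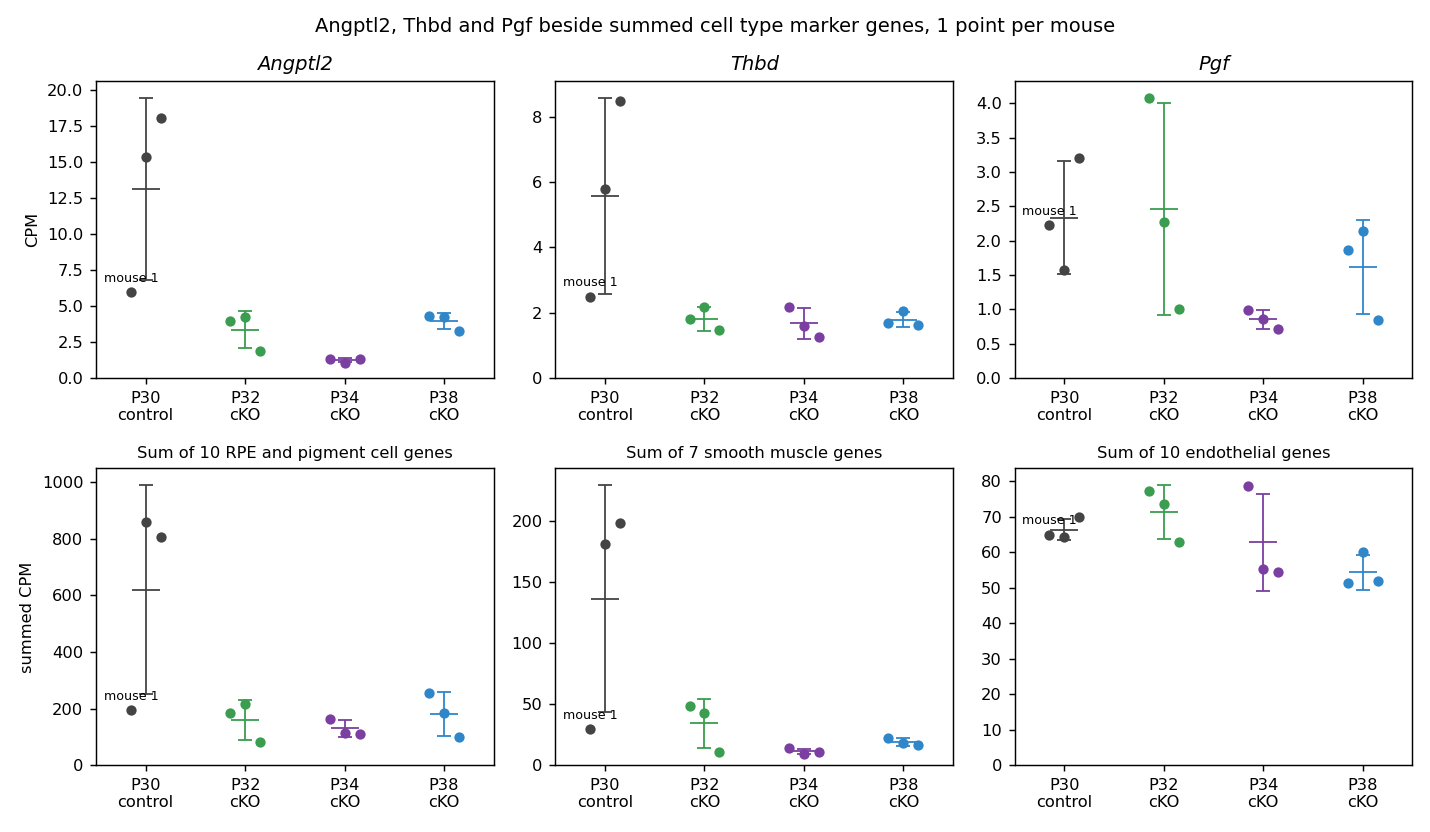
Angptl2, Thbd and Pgf in CPM (top) and the summed CPM of 10 RPE and pigment cell, 7 smooth muscle and 10 endothelial marker genes (bottom), for every mouse on linear axes from 0 (points; mark and bar, mean ± SD, n = 3; P30 mouse 1 is written beside its point). P30 mice 2 and 3 stand highest in Angptl2, Thbd and the sums of pigment and smooth muscle genes, with mouse 1 near the cKO mice, and the endothelial sum stays between 51.2 and 78.5 CPM in all groups.

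Patterns over the 12 libraries were compared by Pearson's r of log2 CPM, given as a description of libraries that share depth and tissue make-up. The genes most like Angptl2 were Mlph (0.98), a melanosome transport protein, Fam129a (0.97) and Bace2 (0.97), a pigment cell protease. Those most like Thbd were Myh11 (0.96), the smooth muscle myosin, Emilin2 (0.96) and Adgre5 (0.95). For Pgf they were Tmem51 (0.97), Magt1 (0.96) and Fkbp9 (0.96). Vegfa went with Cyth1 (0.96), Ftx (0.96) and Dqx1 (0.96), and Vegfb with Abhd8 (0.97), Cox5b (0.97) and Gm1673 (0.96). The highest r was 0.93 for Vegfc (Panx1, then Stim2 and Fam20c), 0.92 for Serpinf1 (Tpm4, then Gstm6 and Ckap2), 0.90 for Angpt1 (Gm23257, then Man1a and Lpin3), 0.89 for Angpt2 (Dennd2d, then Htr2b and Gm48691) and 0.86 for Angptl4 (Spa17, then Exoc3l and Ndufaf5).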

How the data were processed

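Whole-retina RNA of 12 mice was sequenced as stranded poly(A) libraries with 50 bp single reads. The authors aligned reads to mm10 (STAR 2.5.3a), counted uniquely placed reads on genes of Ensembl (HTSeq 0.6.1p1, union mode) and deposited raw counts per gene, which are whole numbers with unequal library totals. The strand option is not given in the sources used here. 23.7 to 32.2% of reads had no unique position and were not counted on genes.

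Counts were scaled by TMM and tested in R 4.3.3 with edgeR 4.0.16 (quasi-likelihood, all 12 mice in 1 fit; pooled cKO in its own fit), Benjamini-Hochberg over 18628 genes; DESeq2 1.42.0 was the alternative tool. Procedures were tested on simulated data. Symbols and positions came from GENCODE M21 (54079 of 54146 IDs). TPM used exon-union length. Named genes are the 10 members, the called genes and the 2 most abundant of each list, and the 3 most similar genes per member, with called markers and those at 0, except 2 genes not reported here. The members and lists were chosen with earlier results of these data known. Alternatives were other scaling, filters, a robust fit, sex as covariate and leaving out mice; 2 subsets were added after seeing the data.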

Additional observations from a re-analysis of the deposited data

Results flagged for a closer look

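Among the 9 cKO mice, a single mouse lay far from the nearest other for 3 of the 10 genes, by Dixon's criterion for 9 values: Vegfb at 42.3 CPM, Angptl4 at 1.95 CPM and Pgf at 4.08 CPM. Chance alone would mark about 1 in 20 groups. All 3 values came from P32 mouse 4, 1 of the 3 libraries highest in lens markers. Without this mouse the P32 difference of Vegfb from P30 was -0.06 that of Pgf -0.50 and that of Angptl4 -0.88 on the log2 scale, beside 0.32, 0.07 and -0.37 with it. The cause was not tested.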

How the results depend on the processing

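No paired analysis was possible because the groups share no replicate numbers. Of the 10 genes, without a filter on low counts edgeR called 1, 2, 1, 1, 1, 2 and 2 at P32, P34 and P38 against P30, P34 against P32, P38 against P34, cKO against P30 and over all conditions, where it called 0.0677%, 0.877%, 0.053%, 1.93%, 0.338%, 0.0765% and 1.22% of all genes tested. DESeq2 called 2, 2, 2, 2, 1, 2 and 2, and an unadjusted p 2, 3, 2, 2, 1, 2 and 3, with 1 for P38 against P32. With sex as a covariate 2 were called at P34 (0.762% of all genes) and 0 in pooled cKO (0%), and with only the 2 groups compared 1 for P38 against P34 (0.401%). With a filter of 1 CPM in 3 libraries 0 were called in pooled cKO (0.0131%). In the 2 subsets chosen after seeing the data, female mice gave 0 at P34, in pooled cKO and over all conditions (0.00516%, 0% and 0.0103% of all genes), and leaving out the 3 libraries highest in lens markers gave 0 in pooled cKO (0%). The female mice include 1 at P34 and 1 at P38, whose spread is taken from the other groups, so these 0 counts at P34 and over all conditions do not bear on the calls. Leaving out 1 mouse gave 0 to 2 calls at P32 and P38, 1 to 2 at P34, 0 to 2 for P34 against P32, pooled cKO and all conditions. The upper values came without P30 mouse 1 at P32, P34, P38, in pooled cKO and over all conditions (0.0997%, 0.777%, 0.0682%, 0.252% and 0.52% of all genes), and without P32 mouse 6 for P34 against P32 and over all conditions (14.3% and 3.08%).

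Sign changes were confined to values that were not called. With sex as a covariate Pgf at P32 was -0.39, Vegfb -0.15 at P34 and -0.05 at P38, and Angpt2 0.03 at P38. In female mice they were Vegfb -0.05, Vegfc -0.04, Angpt1 0.09 and Pgf -0.49 at P32, and Vegfb -0.03 and Angpt2 0.15 at P38. Without the 3 libraries highest in lens markers, which leaves 1 mouse at P32 that is assumed to vary like the other groups, they were Vegfb -0.03, Vegfc -0.17, Angpt1 0.21 and Pgf -0.91 at P32, Angpt1 0.02 at P34, Angpt2 0.02 at P38 and, pooled, Angpt1 0.04 and Angpt2 0.06. Leaving out 1 mouse gave ranges of -0.06 to 0.51 for Vegfb, -0.05 to 0.17 for Vegfc, -0.29 to 0.08 for Angpt1, -0.88 to 0.01 for Angptl4 and -0.50 to 0.45 for Pgf at P32. At P34 it gave -0.10 to 0.21 for Vegfb, -0.29 to 0.01 for Angpt1 and -0.03 to 0.25 for Angpt2. For Angpt2 it gave -0.17 to 0.02 at P38 and -0.17 to 0.01 pooled. The causes were not tested. With 3 mice per group, a printed interval that includes 0 still allows a difference of any size within it.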
